A study of Mus musculus with 15 samples.

Results

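The genes described here encode subunits of voltage-gated sodium channels and are taken by a list of names: the alpha subunits Scn4a, Scn7a and Scn10a and the beta subunits Scn2b, Scn3b and Scn4b. They are 6 of the 40174 gene symbols in each count table. All 6 passed the filter on low counts. Scn2b did so with only 3 libraries at the minimum of 0.42 CPM, the count scaled to the total of the library (before TMM scaling), which were WT replicate 2, G-line HET replicate 3 and G-line HOM replicate 1.

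Left ventricular total RNA of C57BL/6 mice aged 2 months was sequenced to study how mutations of Rbm20, which encodes a splicing regulator of striated muscle, act in cardiac remodelling. The groups were wild type (WT), the G-line with Rbm20 S639G and the A-line with Rbm20 S637A. In each line 1 group is named HET, with the genotype written +/-, and 1 is named HOM, written -/- in the labels. Both alleles are single amino acid changes. Of 15 labelled libraries 13 were distinct, because the libraries labelled A-line HOM 2 and 3 matched WT replicates 2 and 3 exactly in every symbol. Each of these was used once, as WT, so WT, G-line HET, G-line HOM and A-line HET had 3 libraries and A-line HOM had 1. The labels do not settle the true group of the shared libraries, so each result was repeated with this shared pair as A-line HOM, in both groups, or left out.

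A voltage-gated sodium channel is a large alpha subunit, which forms the pore and opens on depolarisation, with smaller beta subunits that have a single membrane-spanning segment and an immunoglobulin-like outer domain. The inward sodium current through these channels drives the upstroke of the action potential in working ventricular muscle and sets how fast the impulse spreads. Beta subunits modify channel gating and membrane density and act in cell adhesion. Those encoded by Scn2b and Scn4b are linked to the alpha subunit by a disulfide bond, and that encoded by Scn3b is not.

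Total counts per library ranged from 12959087 in A-line HET to 29436407 in G-line HOM. Mitochondrial ribosomal RNA made up 20.2% to 23.4% of WT libraries and 10.8% to 17.1% of mutant ones. Myl2, the ventricular myosin light chain, stood at 4089 to 7081 CPM in every library. Atrial Myl7 reached 45.8 CPM in G-line HOM replicate 1, 240 CPM in A-line HET replicate 3 and 524 CPM in WT replicate 2, with at most 3.43 CPM elsewhere. Whether each library is a different animal is not in the labels; p-values therefore rest on library-to-library spread alone, which may be technical. In bulk RNA, fewer cells of a type and less RNA per cell cannot be told apart.

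The promoters of the 4 members that passed the test in G-line HOM are shown so that their base composition can be compared. Each sequence is the 250 bases before the RefSeq gene start (GRCm38.p6, 5′ to 3′ on the gene's strand), with CG dinucleotides in capitals. Promoter entries matched 5 of the 6 members by symbol.
Scn4b, chr9:45138374-45138623, plus strand: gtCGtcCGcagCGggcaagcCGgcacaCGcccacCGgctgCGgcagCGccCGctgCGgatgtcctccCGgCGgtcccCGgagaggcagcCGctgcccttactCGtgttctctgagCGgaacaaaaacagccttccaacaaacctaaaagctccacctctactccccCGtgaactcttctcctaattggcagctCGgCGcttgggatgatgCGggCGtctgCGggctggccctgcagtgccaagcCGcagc
Scn10a, chr9:119719033-119719282, minus strand: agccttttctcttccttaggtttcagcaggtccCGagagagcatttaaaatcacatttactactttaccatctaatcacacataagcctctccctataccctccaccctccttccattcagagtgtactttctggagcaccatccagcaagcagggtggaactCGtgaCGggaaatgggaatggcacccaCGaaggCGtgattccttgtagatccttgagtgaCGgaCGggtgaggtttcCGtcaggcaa
Scn4a, chr11:106349391-106349640, minus strand: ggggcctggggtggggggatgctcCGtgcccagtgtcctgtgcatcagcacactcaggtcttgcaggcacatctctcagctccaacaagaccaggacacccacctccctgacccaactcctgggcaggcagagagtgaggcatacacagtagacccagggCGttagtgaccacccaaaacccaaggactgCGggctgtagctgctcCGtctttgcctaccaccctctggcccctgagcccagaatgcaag
Scn7a, chr2:66784911-66785160, minus strand: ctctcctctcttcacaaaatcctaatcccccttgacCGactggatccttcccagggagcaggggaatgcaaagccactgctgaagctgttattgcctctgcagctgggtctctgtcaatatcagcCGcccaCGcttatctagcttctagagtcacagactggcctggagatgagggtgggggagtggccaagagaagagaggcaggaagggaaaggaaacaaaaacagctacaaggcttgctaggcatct
The Scn4b promoter held 23 CG dinucleotides and 66.0% G and C, and 13.3% of all 32851 promoters of this length had at least as many CG dinucleotides. The counts were 8 for Scn10a, 4 for Scn4a and 3 for Scn7a, against a median of 6 over all promoters. The Scn2b promoter (chr9:45117626-45117875, plus strand) had 1 CG dinucleotide and 38.4% G and C. Scn2b and Scn4b are neighbours on chromosome 9, with 0 genes listed between them in RefSeq. Scn3b and Scn10a lie elsewhere on the same chromosome.

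Searched on both strands, TATAAA, the core sequence of the TATA box (12.4% of all promoters), was in none of the 5 member promoters. GGGCGG, a GC box (32.7%), was in the Scn7a window only among the 5. CANNTG, an E box (66.2%), was in those of Scn7a and Scn2b, and CATTCC, a core for TEAD factors (12.6%), in those of Scn7a and Scn10a. Each motif was searched on its own, so matches of different motifs may overlap, and a match is a description of these windows only.

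In G-line HOM, Scn4b, Scn10a and Scn4a fell and Scn7a rose against WT, whereas Scn2b and Scn3b did not pass the test. In G-line HET only Scn10a passed, and in A-line HET Scn4b and Scn10a passed, both lower. No member passed in the single A-line HOM library. The plot of levels by library shows the 6 genes side by side.

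**Figure D1:**
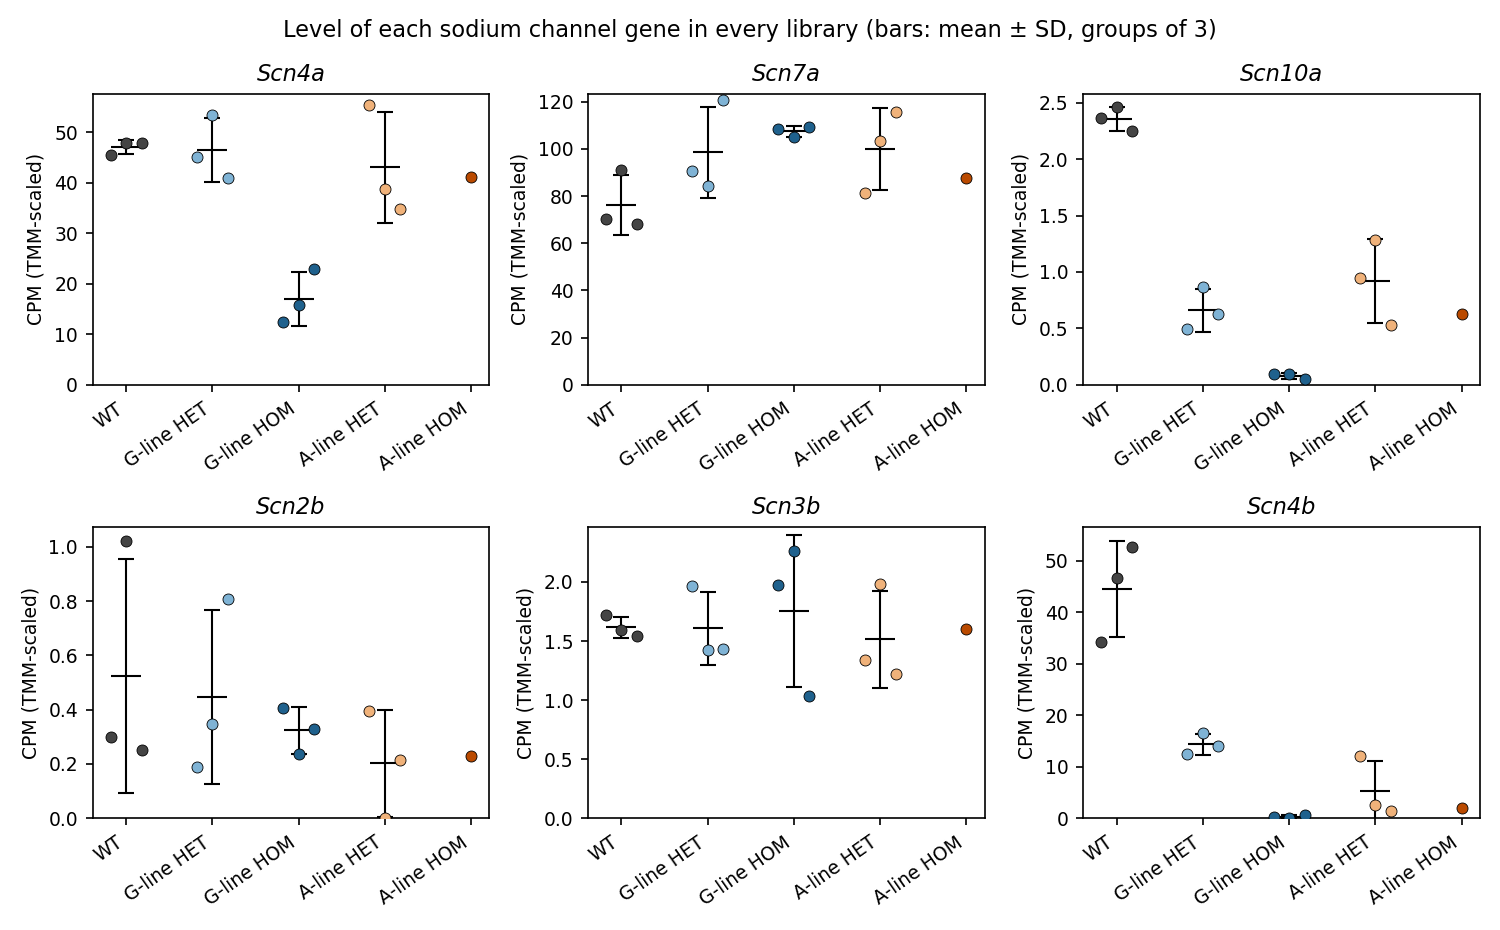
Level of each gene in TMM-scaled CPM (y axis, linear, from 0, a separate scale for each gene) in every library of the 5 groups (x axis); points are libraries and bars are mean ± SD for the groups of 3. Scn4b and Scn10a are highest in WT and lowest in G-line HOM, Scn4a is low only in G-line HOM, and the groups overlap for Scn3b.

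Scn4b encodes a beta subunit that, in neurons, can block the open channel from inside and give a resurgent current. In WT replicates 1 to 3 its level was 34.2, 46.6 and 52.6 CPM. The G-line HET libraries had 12.5, 16.5 and 14.1 CPM, and the G-line HOM libraries 0.313, 0.0471 and 0.564 CPM, from 10, 1 and 12 reads. All G-line libraries lay below every WT library, and all HOM libraries lay below every HET library. The 3 A-line HET libraries had 12.1, 2.51 and 1.33 CPM, and the A-line HOM library had 1.94 CPM. A-line HET replicate 1 thus stood at the level of G-line HET, and replicates 2 and 3 stood on either side of the A-line HOM library.

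The log2 fold change of Scn4b in G-line HOM against WT was -7.15 ± 0.89 (SE, edgeR adjusted p = 0.000519). The summed count was 0.692% of WT after scaling by library size (exact 95% interval 0.438% to 1.04%, which covers counting error only). It was lower again with the second mutated copy: G-line HOM against G-line HET gave -5.51 ± 0.90 (adjusted p = 0.00666), a call lost with the shared pair as A-line HOM (0.0559). One copy of S639G gave -1.63 ± 0.59 against WT, with groups that did not overlap but an edgeR adjusted p of 0.138. That comparison passed when A-line HET replicate 1 was left out (0.00363) or when only WT and G-line HET were fitted (0.000756). It did not pass in the other 22 of 24 alternatives. The difference ran from -1.79 to -1.25 over all 24, and leaving out 1 library gave an edgeR adjusted p of up to 0.351.

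In A-line HET against WT the log2 fold change of Scn4b was -3.15 ± 0.66 (edgeR adjusted p = 0.0219), with all 3 libraries below WT. The call was lost without WT replicate 3 (0.0714), without A-line HET replicate 2 (0.0819), without the libraries that held Myl7 (0.105), with only the compared groups fitted (0.119), and when the shared pair was left out (0.197), used in both groups (0.122) or used as A-line HOM (0.444). A-line HOM against WT gave -4.51 ± 1.18 (adjusted p = 0.0688), with the 1 library below all WT libraries. It passed without A-line HET replicate 1, without A-line HET replicate 3, with only the compared groups fitted and by DESeq2. Over its 23 alternatives the difference ran from -4.86 to -0.0148, the latter with the shared pair as A-line HOM. From high to low the group means ran WT, G-line HET, A-line HET, A-line HOM and G-line HOM, and no step between neighbours in this order passed (adjusted p = 0.138, 0.369, 0.999 and 0.515).

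Scn10a encodes an alpha subunit best known from sensory neurons, where it carries a current that resists tetrodotoxin. Its level was low throughout: 2.36, 2.46 and 2.25 CPM in WT replicates 1 to 3, from 55, 65 and 54 reads. The G-line HET libraries had 0.492, 0.863 and 0.623 CPM and the G-line HOM libraries 0.0938, 0.0942 and 0.0470 CPM, the latter from 3, 2 and 1 reads. Those in A-line HET had 0.946, 1.28 and 0.532 CPM and the A-line HOM library had 0.628 CPM. WT was above every mutant library, G-line HOM was below every other library, and the 2 HET groups and A-line HOM overlapped.

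Against WT, Scn10a changed by -4.79 ± 0.46 in G-line HOM on the log2 scale (edgeR adjusted p = 1.39e-05), with 6 reads in 3 libraries against 174. This is 3.41% of WT after scaling (exact 95% interval 1.24% to 7.58%). In G-line HET the change was -1.84 ± 0.35 (adjusted p = 0.00565), a call lost with the shared pair left out (0.0997) or used as A-line HOM (0.228). The step from 1 to 2 copies of S639G was -2.95 ± 0.50 (adjusted p = 0.00271). Scn10a was therefore lower with each copy in the G-line by the tests of both steps.

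In A-line HET the change of Scn10a was -1.36 ± 0.35 (edgeR adjusted p = 0.0286), and no library overlapped WT. The call was lost without WT replicate 1 (0.0856), 2 (0.0668) or 3 (0.0837), without A-line HET replicate 3 (0.125), without the Myl7 libraries (0.200), and with the shared pair in both groups (0.107), left out (0.230) or as A-line HOM (0.410). The A-line HOM library differed from WT by -1.90 ± 0.56, which did not pass. That difference passed without A-line HET replicate 3 or with only the compared groups fitted. Over its 23 alternatives it ran from -1.93 to -0.383, the latter with the shared pair in both groups. The means of Scn10a ran from WT through A-line HET, G-line HET and A-line HOM to G-line HOM.

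**Figure D2:**
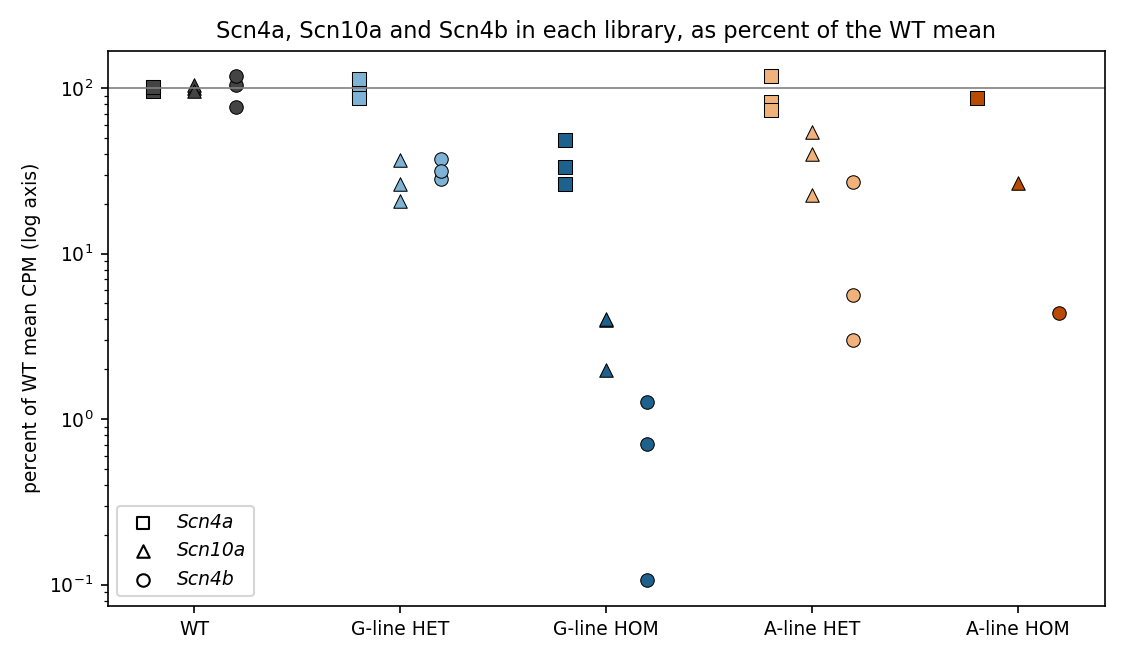
Scn4a (squares), Scn10a (triangles) and Scn4b (circles) in each library as a percentage of the gene's WT mean CPM (y axis, logarithmic), by group (x axis); the line marks the WT mean. Scn4b spans the widest range, with the G-line HOM mean at 0.692%, while Scn4a is below the WT range in all G-line HOM libraries.

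Scn4a encodes the alpha subunit best known from skeletal muscle. Its WT levels were close together at 45.4, 48.0 and 47.8 CPM, and G-line HET had 45.0, 53.3 and 40.9 CPM. The G-line HOM libraries had 12.4, 15.7 and 22.9 CPM, and A-line HET had 55.5, 38.8 and 34.8 CPM beside 41.1 CPM in A-line HOM. Only the G-line HOM group was separate from all other libraries. Its log2 fold change was -1.48 ± 0.22 against WT (edgeR adjusted p = 0.00051) and -1.46 ± 0.22 against G-line HET (adjusted p = 0.00262). After scaling by library size G-line HOM held 34.7% of the WT count (exact 95% interval 32.5% to 37.1%).

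For the other groups, the differences of Scn4a from WT were -0.02 ± 0.21 in G-line HET, -0.13 ± 0.21 in A-line HET and -0.20 ± 0.30 in A-line HOM (edgeR adjusted p = 0.969, 0.779 and 0.794). The 13 skeletal muscle markers summed to 50.9 to 87.0 CPM in WT and 400 to 646 CPM in the mutant libraries. Of 8 tested in G-line HOM, 3 rose (Casq1, Myl1 and Tnnt3) and 1 fell (Cacna1s), where 13.1% of all genes passed as higher and 13.3% as lower. In every library 5 of the 13 were under 1 CPM, the fast myosins Myh1, Myh2 and Myh4 with Actn3 and Mylpf. The higher sum came mainly from Casq1 (7.96 to 16.4 CPM in WT, 221 to 364 CPM in mutant libraries) and Myl1 (26.6 to 53.2 and 109 to 272 CPM), whereas Cacna1s was at 11.8 to 13.2 CPM in WT and at most 5.24 CPM in any mutant library. The part of such cells in the Scn4a level was not tested. The 10 ventricular cardiomyocyte markers summed to 58508 to 64734 CPM in WT and 44968 to 49735 CPM in G-line HOM. Where 13.3% of all genes tested passed as lower, 7 of these 10 markers fell. Their part in the falls of Scn4a, Scn10a and Scn4b was not tested.

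Scn7a encodes a channel relative that responds to extracellular sodium and does not open with voltage like the other alpha subunits. The WT libraries had 70.1, 90.9 and 68.0 CPM, the G-line HET libraries 90.8, 84.1 and 121 CPM, and the G-line HOM libraries 109, 105 and 109 CPM. In A-line HET it had 81.2, 103 and 116 CPM, and the A-line HOM library had 87.7 CPM. The G-line HOM libraries lay above all WT libraries, and the other mutant groups overlapped WT. The log2 fold change in G-line HOM was 0.49 ± 0.15 (edgeR adjusted p = 0.0300). This call was lost when WT replicate 1 (0.112), WT replicate 3 (0.121) or any G-line HOM replicate (0.0630 to 0.0771) was left out, and with the shared pair left out (0.0830) or used as A-line HOM (0.113).

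Differences of Scn7a from WT were 0.37 ± 0.15 in G-line HET, 0.39 ± 0.15 in A-line HET and 0.20 ± 0.22 in A-line HOM (edgeR adjusted p = 0.174, 0.154 and 0.686), and that in A-line HET passed without A-line HET replicate 1 (0.0424). The 8 fibroblast markers summed to 1410 to 2605 CPM in WT and 2947 to 3548 CPM in G-line HOM, most of it Gsn and Dcn. There 4 of the 8 rose (Col1a1, Dcn, Pi16 and Tcf21), where 13.1% of all genes tested passed as higher. The other 4 did not pass, among them Dpt at up to 65.2 CPM in WT and up to 49.4 CPM in G-line HOM. The 8 Schwann cell markers summed to 26.4 to 32.9 CPM in WT and 22.3 to 38.3 CPM in G-line HOM. There 0 of 6 tested passed in edgeR (0 with an unadjusted p under 0.05), beside 26.4% of all genes, and Foxd3 was under 1 CPM in every library. The part of these cells in the Scn7a level was not tested.

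**Figure D3:**
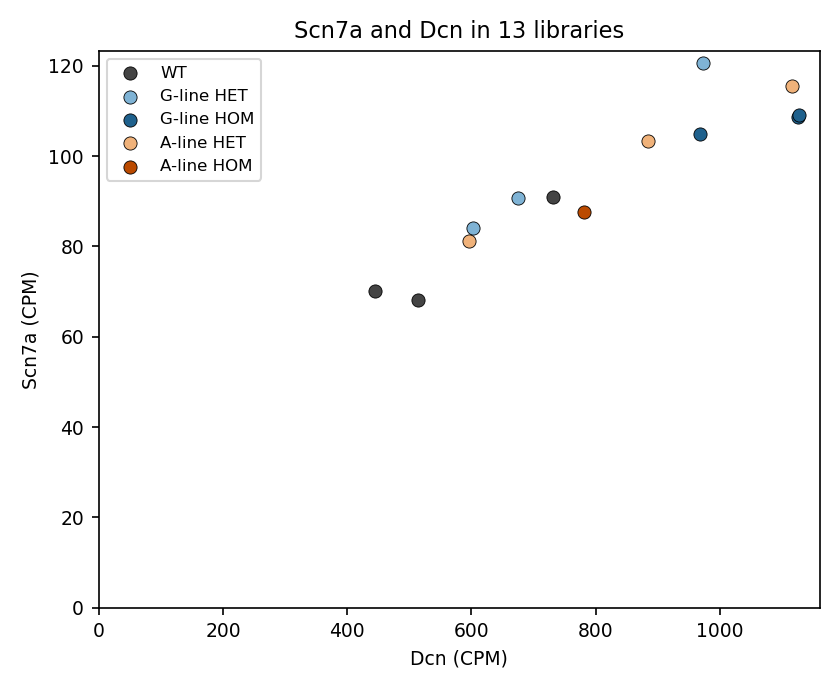
Scn7a (y axis) against Dcn, a fibroblast matrix gene (x axis), both in TMM-scaled CPM on linear axes from 0; each point is 1 of 13 libraries, coloured by group. Libraries with more Dcn tended to have more Scn7a (Pearson r of log2 CPM 0.948). Dcn had the highest correlation with Scn7a among 12374 genes in these same libraries, so the plot is a description only.

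Scn2b and Scn3b encode the remaining beta subunits, the former linked covalently to the alpha subunit and the latter not. Scn2b was sparse, with 0 to 27 reads and 0 to 1.02 CPM per library. Its 0 in A-line HET replicate 2 allows up to 0.175 CPM, which is what 3 reads are worth there. WT replicate 2 held 27 of the 40 WT reads, and this library also had the highest Myl7. G-line HET replicate 3 had 22 reads with Myl7 at 0.110 CPM, and A-line HET replicate 3 had 4 reads with Myl7 at 240 CPM. The part of atrial tissue in the Scn2b level was not tested. Scn2b differed from WT by -0.68 ± 0.73 in G-line HOM, -1.46 ± 0.85 in A-line HET, -0.24 ± 0.71 in G-line HET and -1.20 ± 1.22 in A-line HOM (edgeR adjusted p from 0.346 to 0.891). A difference was not detectable at these counts and this spread between libraries.

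Scn3b ranged from 1.03 to 2.26 CPM over the 13 libraries, from 17 to 63 reads. The mean of WT was 1.62 ± 0.0907 CPM, that of G-line HET 1.61 ± 0.312, that of G-line HOM 1.76 ± 0.642 and that of A-line HET 1.52 ± 0.409 (SD, n = 3), with 1.60 CPM in A-line HOM. Both the lowest and the highest level were in G-line HOM libraries, so the groups overlapped. The log2 differences from WT ran from -0.09 ± 0.32 to 0.12 ± 0.31 (edgeR adjusted p from 0.808 to 0.992). The counting interval of the G-line HOM to WT percentage, 85.7% to 143%, bounds the summed counts only.

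Read over the family, 4 of the 6 members passed in G-line HOM against WT, 3 lower and 1 higher, where 26.4% of all 17588 genes tested passed (13.3% lower and 13.1% higher). The 6 were picked with earlier results of these data known, so these shares are a description. In G-line HET 1 of 6 passed against a background of 7.52%, in A-line HET 2 of 6 against 7.96%, and in G-line HOM against G-line HET 3 of 6, all lower, against 14.6% (8.42% lower). In A-line HOM 0 of 6 passed in edgeR against a background of 4.68%; Scn4b and Scn10a had an unadjusted p under 0.05, and DESeq2 called 1. The median log2 fold change of the members was -1.08 in G-line HOM, -0.75 in A-line HET, -0.13 in G-line HET and -0.70 in A-line HOM, beside medians over all genes of 0.01, 0.02, -0.01 and -0.01. These 4 comparisons share the WT libraries.

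**Figure D4:**
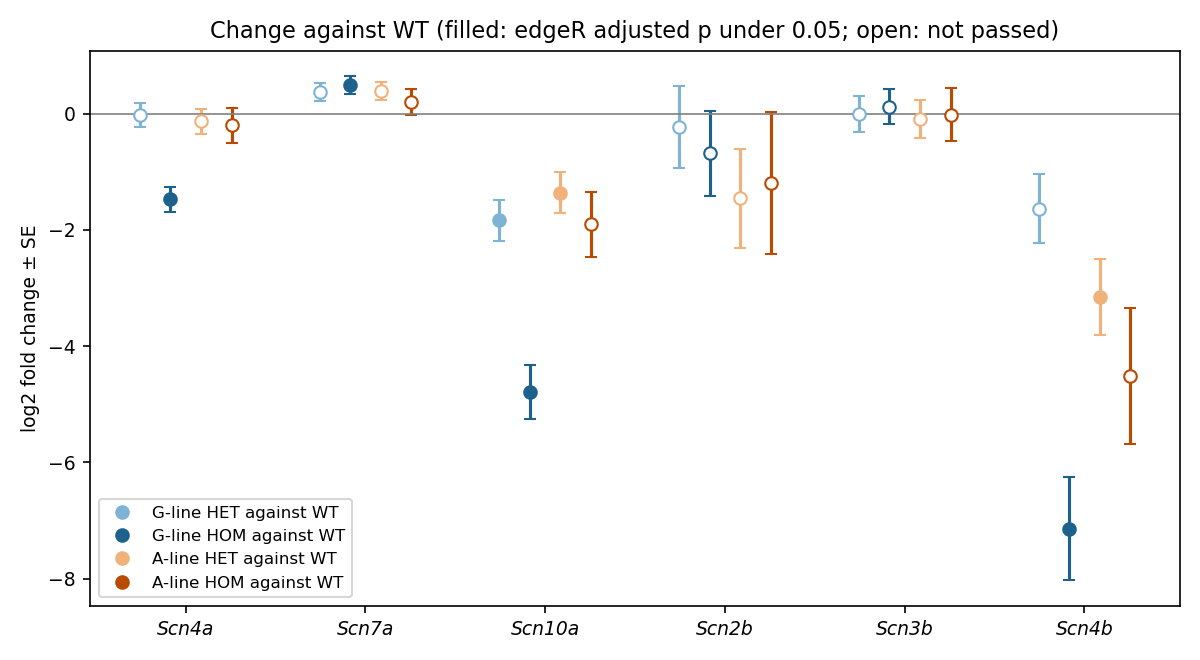
log2 fold change ± SE against WT (y axis) of each gene (x axis) in the 4 mutant groups; filled points passed at an edgeR adjusted p under 0.05 and open points did not. Scn10a and Scn4b are below 0 in all groups, Scn4a is clearly below 0 only in G-line HOM, and the SEs of Scn2b and Scn4b are wide.

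The lines were also compared with each other. G-line HET against A-line HET gave 0 of 6 members in edgeR, where 0.0284% of all genes passed. The nearest was Scn4b at 1.52 ± 0.65 (adjusted p = 0.369, the only member with an unadjusted p under 0.05), and DESeq2 called 0. It passed without A-line HET replicate 1 (0.00568). G-line HOM against the single A-line HOM library gave 0 of 6 in edgeR against a background of 0.0398%, 2 with an unadjusted p under 0.05 and 1 by DESeq2. Scn10a differed by -2.89 ± 0.67 (adjusted p = 0.140), Scn4a by -1.28 ± 0.29 (0.154) and Scn4b by -2.63 ± 1.43 (0.515). With the shared pair as A-line HOM all 3 passed (0.00828, 0.00906 and 0.0274).

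A-line HOM against A-line HET gave 0 of 6 in edgeR and by DESeq2, 0 with an unadjusted p under 0.05, against a background of 0.0227%. Scn4b differed there by -1.36 ± 1.14 and Scn10a by -0.54 ± 0.56 (adjusted p = 0.999 for both). The difference between the lines in the effect of the second copy, G-line minus A-line, was -4.15 ± 1.58 for Scn4b, -2.41 ± 0.76 for Scn10a and -1.39 ± 0.36 for Scn4a (adjusted p = 0.310, 0.214 and 0.172). None of the 6 passed in this edgeR interaction test, 3 had an unadjusted p under 0.05, and the background was 0.0171%. The effect of the second copy was thus not shown to differ between the lines for any member.

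Divided by exon length, which allows genes to be compared, WT levels were 10.4 ± 1.72 CPM per kb for Scn7a, 8.92 ± 1.88 for Scn4b and 6.68 ± 0.203 for Scn4a (SD, n = 3). The other members were far lower, at 0.296 ± 0.0166 CPM per kb for Scn3b, 0.296 ± 0.0131 for Scn10a and 0.113 ± 0.0927 for Scn2b. The levels of Scn7a and Scn4b, and those of Scn3b and Scn10a, lay within the SD of each other. Among the 3 beta members, Scn4b made up 94.8% to 96.9% of the summed level per kb in WT libraries, against 1.99% to 30.3% for G-line HOM and 86.2% to 90.8% for G-line HET. In A-line HET it made up 49.7% to 88.0%, and in A-line HOM 53.3%. Scn4b was thus the leading beta transcript of the 3 in WT but not in G-line HOM, where Scn3b was higher per kb.

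The summed level of the 3 beta members was 9.33 ± 1.88 CPM per kb for WT, 3.27 ± 0.366 for G-line HET, 0.453 ± 0.0715 for G-line HOM and 1.38 ± 1.19 for A-line HET (SD, n = 3), with 0.732 for A-line HOM. That of the 3 alpha members was 17.4 ± 1.84 in WT, 20.1 ± 1.94, 17.1 ± 0.910 and 19.9 ± 0.857 in the same mutant groups and 17.9 in A-line HOM. The beta sum in every mutant library lay below every WT library, whereas the alpha sums overlapped WT. In WT Scn4b made up 94.8% to 96.9% of the beta sum, and Scn7a was the largest part of the alpha sum at 10.4 CPM per kb. The sums thus mainly follow these genes and cover the listed members only. Lower Scn4a and higher Scn7a in G-line HOM stood together in that alpha sum.

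Across the 13 libraries, log2 CPM of Scn4b correlated with that of Scn10a (Pearson r = 0.872) and Scn4a (0.861), and Scn4a with Scn10a (0.823), while Scn7a ran against Scn4b (-0.65). These values describe libraries that share groups, and carry no test. By the same measure the genes most like Scn4b among 12374 were Acy1 (0.985), an aminoacylase, Alad (0.980), an enzyme of haem synthesis, and Ogdhl (0.976), an oxoglutarate dehydrogenase relative. Ogdhl ran from 164 to 197 CPM for WT libraries, 64.4 to 87.7 for G-line HET and 2.19 to 8.83 for G-line HOM. In A-line HET it had 94.9, 16.2 and 13.7 CPM, the same order of libraries as Scn4b, the likeness for which it was picked. The falls of the other genes were smaller, from a mean of 9.58 CPM in WT to 4.82 CPM in G-line HOM for Acy1 and from 37.6 to 16.0 CPM for Alad.

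Most like Scn10a were Agpat3 (0.949), an acyltransferase, Mmab (0.945), of cobalamin metabolism, and Kcnd2 (0.944), a channel of the transient outward potassium current. For Scn4a they were Tnfrsf21 (0.974), Mdga1 (0.974) and Tmem50b (0.970). For Scn7a they were the fibroblast genes Dcn (0.948) and Pdgfra (0.948), and Gabra3 (0.946), a GABA receptor subunit. The nearest to the sparse Scn2b and Scn3b were Smtnl2 (0.824) and Psmd9 (0.819), which at these counts are names only.

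Markers of the cell types in which some members are best known were read beside them. The 10 neuron markers summed to 5.88 to 7.68 CPM in WT and 20.3 to 24.1 CPM in G-line HOM, opposite in direction to Scn10a. Of 3 tested there, Tubb3 and Uchl1 rose, where 13.1% of all genes passed as higher. The third, Dbh, did not pass, at 2.38 to 3.01 CPM in WT and 2.06 to 8.08 CPM in G-line HOM. In every library 7 of the 10 were under 1 CPM. The 8 conduction system markers summed to 55.1 to 77.6 CPM for WT, 114 to 141 for G-line HET, 62.9 to 77.4 for G-line HOM, and 87.1 to 103 for A-line HET, with 62.3 CPM in the A-line HOM library, an order unlike that of Scn10a or Scn4b. The part of these cells in the levels of Scn10a and Scn4b was not tested.

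Channel partners are proteins that anchor, traffic or modify sodium channels, and 34 of 35 listed genes were tested. In G-line HOM 5 rose and 7 fell, with a median of -0.03, where 13.1% of all genes passed as higher and 13.3% as lower. Gpd1l, whose protein affects channel trafficking, fell from 74.1 ± 1.17 to 42.5 ± 0.394 CPM (SD, n = 3; log2 fold change -0.80 ± 0.08, edgeR adjusted p = 1.71e-05). Ank2, the membrane adaptor ankyrin-B, fell by 0.91 on the log2 scale (adjusted p = 9.86e-05), and Ptpn3, a tyrosine phosphatase, by 1.47 (0.000215). Pkp2, the desmosomal plakophilin, rose by 0.52 (0.000444), which was lost with the shared pair as A-line HOM (0.177).

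In the other groups, 3 partners rose and 2 fell in G-line HET, 3 rose and 5 fell in A-line HET, and 1 rose and 1 fell in A-line HOM, with medians of 0.01, -0.09 and -0.08. The shares of all genes that passed there were 7.52%, 7.96% and 4.68%. In G-line HET, Gja1, the connexin of ventricular gap junctions, fell from 466 ± 86.1 to 244 ± 12.4 CPM (SD, n = 3; edgeR adjusted p = 0.000381). Calm3, a calmodulin gene, rose by 0.44 (0.0265), and Ptpn3 fell by 0.69 (0.0467). Both calls were lost without WT replicate 1 (0.124 and 0.152) or without G-line HET replicate 1 (0.144 and 0.163), with the shared pair left out (0.150 and 0.190) or used as A-line HOM (0.219 and 0.366), that of Calm3 also without WT replicate 3 (0.0737), and that of Ptpn3 on leaving out any of 6 other libraries (0.0537 to 0.126). Gpd1l fell by 0.61 in A-line HET and by 0.57 in A-line HOM (adjusted p = 0.000521 and 0.0117), and Ptpn3 fell by 0.995 in A-line HET (0.00856). Pkp2 rose by 0.37 in A-line HET (0.0141, and 0.0576 without WT replicate 2) and by 0.57 in A-line HOM (0.0116). Camk2g, a calmodulin-dependent kinase, rose by 0.29 in A-line HET (0.0225), a call lost without any 1 of the WT replicates (0.0594 to 0.0802) or A-line HET replicate 3 (0.0826). All of these A-line calls were lost with the shared pair used as A-line HOM or in both groups. With the pair left out, all were lost but that of Gpd1l in A-line HET. In A-line HET the calls of Pkp2, Ptpn3 and Camk2g were also lost without the Myl7 libraries (0.0651, 0.0663 and 0.126).

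Pumps, exchangers and cotransporters that set the sodium gradient were the other list, with 22 of 25 listed genes tested. In G-line HOM 2 rose and 6 fell, with a median of -0.16, beside the 26.4% of all genes that passed. Slc9a2, a sodium-proton exchanger, fell from 5.40 ± 0.725 to 0.146 ± 0.118 CPM (SD, n = 3; -5.25 ± 0.57, edgeR adjusted p = 3.92e-05). Fxyd5, a pump regulator, rose by 1.12 (0.000556), and Slc12a2, a sodium-potassium-chloride cotransporter, fell by 0.57 (0.00194), which was lost with the pair as A-line HOM (0.0620).

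In G-line HET 1 of these transport genes fell, Slc12a2, by 0.51 (edgeR adjusted p = 0.0138), and it was lost without WT replicate 1 (0.0612), WT replicate 3 (0.0660), G-line HET replicate 1 (0.0820) or G-line HET replicate 3 (0.0673), and with the shared pair left out (0.128) or used as A-line HOM (0.235). In A-line HET 2 fell, among them Slc12a2 by 0.54 (0.0093), which was lost without WT replicate 3 (0.0505) or A-line HET replicate 2 (0.0510), and with the shared pair in both groups (0.0745), left out (0.120) or as A-line HOM (0.343). These counts of 1 and 2 of 22 stand beside 7.52% and 7.96% of all genes. In A-line HOM 0 of the 22 passed in edgeR, 6 had an unadjusted p under 0.05 and DESeq2 called 2.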

How the data were processed

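Left ventricular total RNA was extracted with TRIzol, cleaned of DNA with DNase and sequenced from Illumina TruSeq total RNA Gold libraries, per the labels' protocols. The submitters' processing notes name bcl2fastq 2.20.0.422, Trimmomatic 0.39, STAR 2.7.4a and the build mm39 (GRCm39). Deposited by the authors were 3 tables of raw counts by gene symbol. How reads were counted, with which annotation and with what strand setting, is not given in the sources used here, so reads of overlapping or antisense genes cannot be separated.

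Genes needed at least 3 libraries at 0.42 CPM before TMM scaling (10 counts in the median library) and a total of at least 15 counts, which left 17588. CPM used TMM-scaled library sizes. One edgeR 4.0.16 (R 4.3.3) quasi-likelihood model with a mean per group was fitted to all 13 libraries, with 8 residual degrees of freedom and a common biological coefficient of variation of 17.1%. Its two-sided F test was adjusted by Benjamini-Hochberg over all genes, with a threshold of 0.05. The procedure was tested on simulated data. Libraries were grouped by sample title.

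CPM per kb used the union of exons in GENCODE vM21 (GRCm38), and promoters came from RefSeq on GRCm38.p6. Both builds differ from that of the counts. Correlations used log2 CPM with a prior count of 2, over genes with a mean of at least 1 CPM. Intervals are exact, at 95%, and cover counting error only, and the floor for 0 is 3 counts.

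Members and lists were chosen with earlier results of these data known. Named genes were all members, the genes of highest correlation with each (3 looked up, leaving out predicted and Y-linked genes), and up to 4 passing genes of each list by smallest adjusted p. Other members of the gene family, and some genes that this rule took, are not reported here. The alternatives tried were DESeq2 1.42.0, its size factors (RLE), other filters, a replicate block, a fit to the compared groups alone, other uses of the shared pair, no mitochondrial or ribosomal RNA genes, no libraries with Myl7 at 10 CPM or more, and each library left out.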

Additional observations from a re-analysis of the deposited data

How the results depend on the processing

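The falls of Scn4b, Scn10a and Scn4a in G-line HOM against WT passed under all 24 alternatives, with log2 fold changes of -7.73 to -6.71, -4.95 to -4.57 and -1.75 to -1.27 and adjusted p up to 0.0448, 0.0216 and 0.0277. Same-numbered replicates did not deviate together (correlations of -0.27 to 0.15 over 18 pairs, 2 of them over 0.1), so the numbers were not read as pairs. With the replicate number as a block, members passing in A-line HET against WT went from 2 to 1 (Scn4b at 0.0548), and no other count of members moved by over 1.5 times.

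Members passing against WT moved as follows. With the shared pair as A-line HOM or left out, both G-line HET (from 1) and A-line HET (from 2) had 0, and A-line HET had 0 with the pair in both groups or without the Myl7 libraries. With only the compared groups, G-line HET had 2, A-line HET 1 and A-line HOM 2 (from 0). DESeq2 gave 1 in A-line HOM. G-line HOM against A-line HOM went from 0 to 3 with the pair as A-line HOM or in both groups, and to 1 with DESeq2. Leaving out 1 library gave 3 to 4 in G-line HOM, 1 to 2 in G-line HET, 0 to 3 in A-line HET and 0 to 2 in A-line HOM against WT, and 0 to 1 in each comparison between the lines. G-line HOM against G-line HET kept 3. A-line HOM had no value without its only library. Counts over all genes ranged from 1151 to 4890 in G-line HOM (4640), 5 to 2200 in G-line HET (1322), 0 to 2038 in A-line HET (1400) and 0 to 1440 in A-line HOM (823) against WT. They ranged from 1168 to 3114 in G-line HOM against G-line HET (2575), 0 to 25 in A-line HOM against A-line HET (4), 0 to 607 between the HET groups (5) and 0 to 2285 between the HOM groups (7).

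Directions turned only for differences that had not passed. With the pair as A-line HOM, Scn2b against WT was 0.13 in G-line HOM, 0.57 in G-line HET and 0.77 in A-line HOM, and Scn4a was 0.032 in G-line HET (0.026 with the pair left out) and 0.0075 in A-line HOM. In G-line HET, Scn3b was 0.00096 with RLE factors, 0.015 without a filter, 0.0067 with only the compared groups and 0.0013 by DESeq2, and Scn4a was 0.00068 without a filter. Without the Myl7 libraries, A-line HET had Scn3b at 0.048 and Scn4a at 0.016, and G-line HET against A-line HET had Scn7a at 0.088 (0.016 without a filter), Scn3b at -0.069 and Scn4a at -0.024. A-line HOM against A-line HET gave Scn3b at -0.041 under the block and -0.073 without the Myl7 libraries. There the pair as A-line HOM, or in both groups, gave Scn10a 0.976 and 0.979, Scn4a 0.0880 and 0.0884, and Scn4b 2.74 and 2.75, and G-line HOM against A-line HOM gave Scn2b -0.643 and -0.641. On leaving out 1 library, Scn3b ran from -0.084 to 0.38 in G-line HOM, -0.18 to 0.072 in G-line HET, -0.34 to 0.055 in A-line HET and -0.048 to 0.029 in A-line HOM against WT, and Scn4a from -0.13 to 0.063 in G-line HET. Scn3b ran from -0.076 to 0.39 in G-line HOM against G-line HET, -0.090 to 0.33 between the HET groups and -0.069 to 0.40 between the HOM groups. Between the HET groups Scn7a ran from -0.20 to 0.090 and Scn4a from -0.023 to 0.33. In A-line HOM against A-line HET the ranges were -0.071 to 0.32 for Scn3b, -0.20 to 0.16 for Scn4a, -1.86 to 0.030 for Scn4b and -0.35 to 1.02 for Scn2b. The cause of these turns was not tested.

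Limits are the unsettled group of the shared pair, the single A-line HOM library, and few reads for Scn2b.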
